A study of Mus musculus with 24 samples.

Results

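The liver genes described here handle iron and other metals. They are 10 genes, chosen by name: Hamp, Hamp2, Tfrc, Tfr2, Slc40a1, Mt1, Mt2, Slc39a14, Steap4 and Hpx. Every non-control probe that carried one of these names was taken, which gave 14 probes of the 56605 on the array and 10 of its 37074 gene names. Tfrc, Tfr2, Slc40a1 and Mt1 had a second probe. All 14 probes passed the filter on dim probes, and none had a saturated spot.

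The liver is the main source of hepcidin, the peptide hormone that binds the iron exporter ferroportin and causes its loss from the cell surface, so that less iron enters the blood. Hepcidin transcription is raised by bone morphogenetic protein signals through SMAD proteins when iron is plentiful and by interleukin 6 through STAT3 in inflammation. Hepatocytes take up transferrin-bound iron through transferrin receptors and other iron through the transporter ZIP14, and they make metallothioneins, small proteins that bind zinc and copper, and hemopexin, the plasma protein that binds free haem.

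The study used male C57Bl/6J mice that either expressed PPARα in hepatocytes (LWT) or did not (LKO). PPARα is the nuclear receptor for fatty acids that drives hepatic fat oxidation. The labels do not give the Cre driver or the part of Ppara that was removed. In each genotype 6 mice received CL316243, an agonist of the β3-adrenergic receptor, which fat cells carry, at 3 mg/kg by gavage, and 6 received the vehicle alone, 0.5% carboxymethyl cellulose in water. The labels call the treated groups Beta3. Gavage was at ZT10 (hours after lights on), livers were taken at ZT16, and all mice had free access to standard chow, so the groups differed in genotype and agonist and shared sex, strain, diet and hour. The labels do not state the age of the mice.

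Hepcidin is encoded by 2 neighbouring genes in the mouse. The probes that read them are shown because the genes are near copies whose values differed. Each is printed 5′ to 3′, and capitals mark the bases that differ between the probes where they overlap.
Hamp: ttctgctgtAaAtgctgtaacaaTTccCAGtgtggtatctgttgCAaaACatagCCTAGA
Hamp2: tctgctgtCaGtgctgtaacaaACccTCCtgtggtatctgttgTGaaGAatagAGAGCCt
Over the 59 bases in which the probes overlap, 42 matched and 17 differed, and the longest run in common was 14 bases. The Hamp probe lies at chr7:31727490-31727549 and the Hamp2 probe at chr7:31707520-31707579, both on the minus strand of mm9. How much RNA of one gene binds the probe of the other was not tested.

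The upstream windows of both hepcidin genes and of Mt1 and Mt2 are shown because their transcription factors are known from textbooks and because each pair lies side by side in the genome. They are the 250 bases before the RefSeq gene start in GRCm38.p6, on the gene's strand. In the hepcidin windows capitals mark the STAT site pattern TTCNNNGAA and the BMP response element GGCGCC. Hamp (chr7:30944030-30944279, minus strand) held both, the STAT pattern 97 bases and GGCGCC 109 bases before the start. Hamp2 (chr7:30924182-30924431, minus strand) held the STAT pattern 94 bases before the start and no GGCGCC in these letters.
Hamp: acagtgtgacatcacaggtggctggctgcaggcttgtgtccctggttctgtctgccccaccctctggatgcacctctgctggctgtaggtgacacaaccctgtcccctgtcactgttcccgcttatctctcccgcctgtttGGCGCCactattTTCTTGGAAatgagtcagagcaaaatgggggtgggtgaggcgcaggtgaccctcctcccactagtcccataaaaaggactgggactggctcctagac
Hamp2: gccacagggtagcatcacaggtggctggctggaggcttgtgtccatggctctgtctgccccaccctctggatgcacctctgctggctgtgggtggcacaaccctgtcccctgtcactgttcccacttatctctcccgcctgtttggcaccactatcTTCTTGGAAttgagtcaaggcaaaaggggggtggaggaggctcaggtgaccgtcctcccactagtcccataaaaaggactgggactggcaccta
In the metallothionein windows capitals mark the metal response element core, TGCACNC or TGCGCNC on either strand. Mt1 (chr8:94178839-94179088, plus strand) held 1 match, 23 bases before the start. Mt2 (chr8:94172368-94172617, plus strand) held 3, which lay 223, 128 and 50 bases before it.
Mt1: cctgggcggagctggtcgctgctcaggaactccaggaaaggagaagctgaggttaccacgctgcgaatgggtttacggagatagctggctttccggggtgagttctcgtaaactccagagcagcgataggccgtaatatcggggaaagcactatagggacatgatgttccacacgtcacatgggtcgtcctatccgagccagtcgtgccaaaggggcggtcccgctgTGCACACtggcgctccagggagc
Mt2: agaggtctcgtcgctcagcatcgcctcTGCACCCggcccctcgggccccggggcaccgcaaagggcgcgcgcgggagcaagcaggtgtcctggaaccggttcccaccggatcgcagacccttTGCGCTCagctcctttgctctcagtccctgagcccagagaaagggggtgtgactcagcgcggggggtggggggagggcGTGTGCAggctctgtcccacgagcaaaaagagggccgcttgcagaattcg
Of all 32851 RefSeq upstream windows of this length, 21.4% held at least 1 metal response element core and 1.26% held 3 or more. The STAT pattern was in 7.02% and GGCGCC in 9.59%. A match is a description of the letters and not a measured binding site. Only bases before the RefSeq start were searched, so sites past it were not counted. The counts therefore do not rank Mt1 and Mt2 by their metal response elements.

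Signals are given as log2 of the scanner software's processed intensity, from which a fitted background surface was subtracted, relative to the 75th percentile of the same array, which was 271 to 390 intensity units, and 26985 to 34202 probes per array were well above background. Of the genes on the array 21331 passed the filter and were tested together with limma, and a gene was called at a Benjamini-Hochberg adjusted p under 0.05. Each mouse gave 1 array, so the limma p-values set a difference against the spread between mice, pooled over the 4 groups. The 6 hepatocyte markers were all tested, and their summed linear signal was 2650 to 3660 times the 75th percentile in every liver, with overlapping ranges in the 4 groups. The brighter of the Ppara probes read 6.24 ± 0.16 in LWT and 5.57 ± 0.15 in LKO livers under vehicle (SD, n = 6), and 6.79 ± 0.28 and 4.88 ± 0.65 under CL316243. The signal was lower in LKO livers but present, and the labels do not tell whether this probe lies in the removed part. In whole tissue, fewer cells of a type and less RNA per cell cannot be told apart.

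In LWT livers 7 of the 10 genes were called, 6 higher and 1 lower, where 38.2% of all tested genes were called, 19.1% higher and 19.1% lower. In LKO livers 7 of 10 were called, 5 higher and 2 lower, beside 40.2% of all genes, 20.7% higher and 19.4% lower. The 5 genes higher in both genotypes were Mt1, Mt2, Slc39a14, Steap4 and Hpx. Hamp rose and Slc40a1 fell in LWT, and Tfrc and Hamp2 fell in LKO. The treated and vehicle mice did not overlap for 3 genes in LWT (20.3% of all genes) and for 6 in LKO (20.8%). The median change of the 10 genes was 0.67 in LWT and 0.50 in LKO, beside 0.01 and 0.03 for all genes. The 10 genes were chosen with earlier results of these data known. These counts and medians are therefore descriptions and no test of the set.

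**Figure D1:**
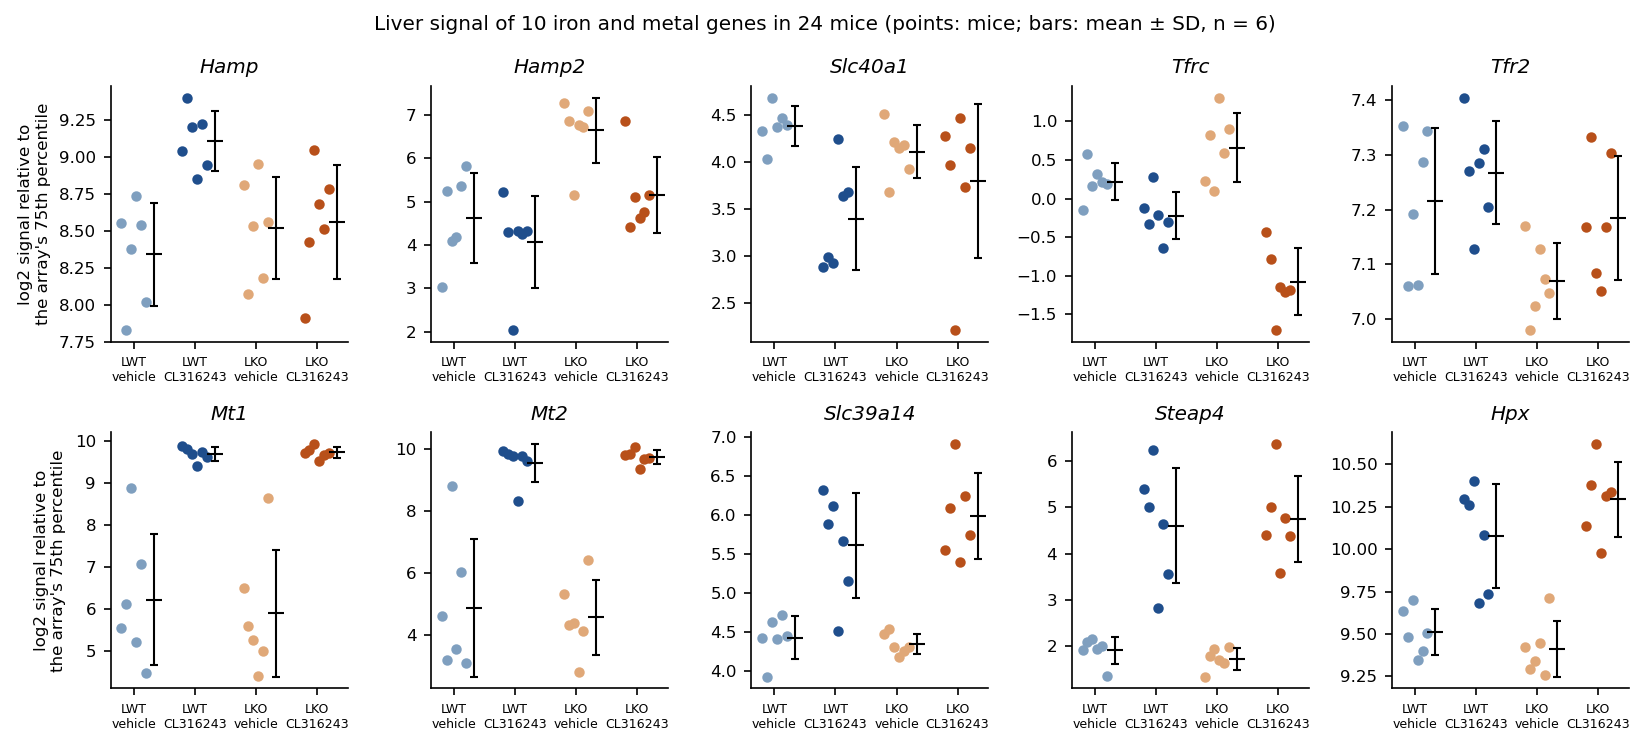
Log2 signal of each of the 10 genes (vertical axis, relative to the array's 75th percentile, a separate scale per gene) in LWT and LKO mice given vehicle or CL316243. Points are mice and bars are mean ± SD (n = 6). Mt1, Mt2, Slc39a14, Steap4 and Hpx lie higher under CL316243 in both genotypes, Hamp in LWT, and Tfrc lies lowest in LKO mice given CL316243.

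Hamp encodes hepcidin itself. Its signal in LWT livers was 7.83 to 8.73 under vehicle (median 8.46) and 8.85 to 9.40 under CL316243 (median 9.12), so the 6 treated mice all lay above the 6 vehicle mice. The rise was 0.77 (SE 0.18, limma adjusted p 0.00200), or 1.70-fold with a 95% confidence interval of 1.31 to 2.21. The exact permutation test over the 924 splits of 6 against 6, two-sided, gave p = 0.00216, the smallest it can give. In all, 56 such tests were run over the 14 probes. Exact permutation p-values are unadjusted unless stated.

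In LKO livers Hamp spanned 8.07 to 8.95 under vehicle (median 8.55) and 7.91 to 9.05 under CL316243 (median 8.60). These groups overlapped almost entirely, with 3 of 6 treated mice above the vehicle mean. The difference was 0.04 (SE 0.18, limma adjusted p 0.878), with an interval from a 0.79-fold to a 1.34-fold level. The test of the difference between the genotypes' responses gave -0.73 (SE 0.26, limma adjusted p 0.115), so a genotype difference in the hepcidin response was not called.

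Under CL316243, Hamp was lower in LKO than in LWT livers by 0.55 on the log2 scale (limma adjusted p 0.0432; exact permutation p 0.0108), with overlap. This call was lost under 8 of 13 alternative settings. It was also lost on leaving out any of 10 mice, namely LKO vehicle replicate 3, LKO CL316243 replicates 1, 2, 4 and 5 and LWT CL316243 replicates 1, 2, 3, 5 and 6 (differences -0.58 to -0.42, limma adjusted p 0.0508 to 0.113). Under vehicle the genotypes differed by 0.18 (limma adjusted p 0.956). The order of the Hamp means was LWT CL316243, LKO CL316243, LKO vehicle and LWT vehicle. The last 3 overlapped each other, and LWT CL316243 (8.85 to 9.40) overlapped both LKO groups.

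Hamp2 encodes the second murine hepcidin-like peptide, whose role in iron handling is less clear. Its signal was 3.04 to 5.83 in LWT vehicle mice (median 4.71) and 2.04 to 5.21 in LWT CL316243 mice (median 4.31). In LKO it was 5.15 to 7.26 under vehicle (median 6.81) and 4.42 to 6.85 under CL316243 (median 4.93). LKO vehicle mice were the highest group, and 5 of the 6 lay above every LWT mouse.

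Hamp2 fell in LKO by 1.48 on the log2 scale (SE 0.52, limma adjusted p 0.0256), to a 0.36-fold level. The exact permutation p was 0.0216, or 0.0551 adjusted over the 56 exact tests. The limma call was lost without LKO CL316243 replicate 2 (-1.34, limma adjusted p 0.0586) or without LKO vehicle replicate 1 (-1.36, limma adjusted p 0.0551). In LWT the difference was -0.55 (limma adjusted p 0.436), and the interaction was not called (-0.94, limma adjusted p 0.557). The difference between genotypes under vehicle was 2.01 (SE 0.52, exact permutation p 0.00866), and its limma adjusted p of 0.0599 missed the threshold. Without LKO vehicle replicate 3, LWT vehicle replicate 6, LKO CL316243 replicate 1 or LWT CL316243 replicate 3 it was called (2.01 to 2.31, limma adjusted p 0.0228 to 0.0385). None of the 10 genes was called between the genotypes under vehicle, where 1.18% of all genes were, and 9 of them had limma adjusted p of 0.591 or more.

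Slc40a1 encodes ferroportin, the iron exporter that hepcidin binds. Its brighter probe (chr1:45965255-45965314, minus strand, mm9) read 4.03 to 4.68 in LWT vehicle mice (median 4.38) and 2.89 to 4.24 in LWT CL316243 mice (median 3.31). All 6 treated mice lay below the vehicle mean, and the groups overlapped through LWT CL316243 replicate 4 at 4.24. Slc40a1 fell by 0.98 on the log2 scale (SE 0.29, limma adjusted p 0.00946; exact permutation p 0.00433), to a 0.51-fold level with an interval of 0.33 to 0.76. Within the 3 slides, with 2 mice a group on each, the difference was -1.22 to -0.58.

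In LKO livers Slc40a1 was 3.68 to 4.50 under vehicle (median 4.17) and 2.21 to 4.46 under CL316243 (median 4.06), with 3 of 6 treated mice below the vehicle mean. The low value was that of 1 mouse, LKO CL316243 replicate 3. The difference was -0.31 (SE 0.29, limma adjusted p 0.415), and 0.01 without that mouse (limma adjusted p 0.982). Across all mice the interaction was 0.67 (limma adjusted p 0.417) and the LKO minus LWT difference under CL316243 was 0.41 (limma adjusted p 0.400). Without that mouse they were 0.99 (limma adjusted p 0.0383) and 0.72 (limma adjusted p 0.0176), so 1 mouse decided whether the genotype difference was called.

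The second Slc40a1 probe, annotated to another transcript and placed at chr1:45980637-45980696, was far dimmer, and 5 of 6 LWT CL316243 arrays had it well above background. It read -1.64 to -0.96 in LWT vehicle mice and -3.11 to -0.94 in LWT CL316243 mice. Its difference was -0.80 in LWT (limma adjusted p 0.0460; exact permutation p 0.0563) and -0.07 in LKO (limma adjusted p 0.883). Second probes were adjusted over all kept probes, of which 37.6% were called in LWT and 40.9% in LKO.

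Tfrc encodes transferrin receptor 1, the main importer of transferrin-bound iron in most cells, whose mRNA is known to be stabilised when cells lack iron. Its brighter probe (chr16:32632255-32632314, plus strand, mm9) read 0.10 to 1.31 in LKO vehicle mice (median 0.70) and -1.70 to -0.44 in LKO CL316243 mice (median -1.16). The groups lay apart, with the highest treated mouse below the lowest vehicle mouse. Tfrc fell by 1.73 on the log2 scale (SE 0.20, limma adjusted p 1.34e-06; exact permutation p 0.00216), to a 0.30-fold level with an interval of 0.22 to 0.40.

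In LWT livers Tfrc was -0.15 to 0.58 under vehicle (median 0.21) and -0.64 to 0.28 under CL316243 (median -0.26). The groups overlapped, with 5 of 6 treated mice below the vehicle mean. The difference of -0.44 (SE 0.20, limma adjusted p 0.0921; exact permutation p 0.0281) was not called. It was called without LWT CL316243 replicate 3 (-0.54, limma adjusted p 0.0452), with array weights (-0.61, limma adjusted p 0.0108) and with only these groups in the fit (limma adjusted p 0.0341).

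Tfrc was the 1 gene of the 10 for which the difference between the genotypes' responses was called, beside 5.40% of all genes. The interaction was -1.29 (SE 0.29, limma adjusted p 0.00822), and leaving out each mouse in turn gave -1.42 to -1.16 with limma adjusted p up to 0.0177. Within the slides it was -1.47 to -1.10. The means were ordered LKO vehicle, LWT vehicle, LWT CL316243 and LKO CL316243. Under vehicle the LKO minus LWT difference was 0.44 (limma adjusted p 0.594). Under CL316243 it was -0.85 (SE 0.20, limma adjusted p 0.00496; exact permutation p 0.00433), and all 6 LKO mice lay under the mean of LWT. Tfrc and Hamp were the 2 of 10 genes called in this last comparison, beside 15.9% of all genes, and both were lower in LKO, beside 8.30%.

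The second Tfrc probe (chr16:32620470-32620529) lies in an earlier part of the transcript and shares no base position with the first. It gave -1.57 in LKO (limma adjusted p 1.76e-06), again with no overlap, and -0.43 in LWT (limma adjusted p 0.0778). Its interaction was -1.14 (SE 0.27, limma adjusted p 0.0108) and its difference under CL316243 was -0.84 (limma adjusted p 0.00298), beside 5.91% and 15.3% of kept probes called.

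**Figure D2:**
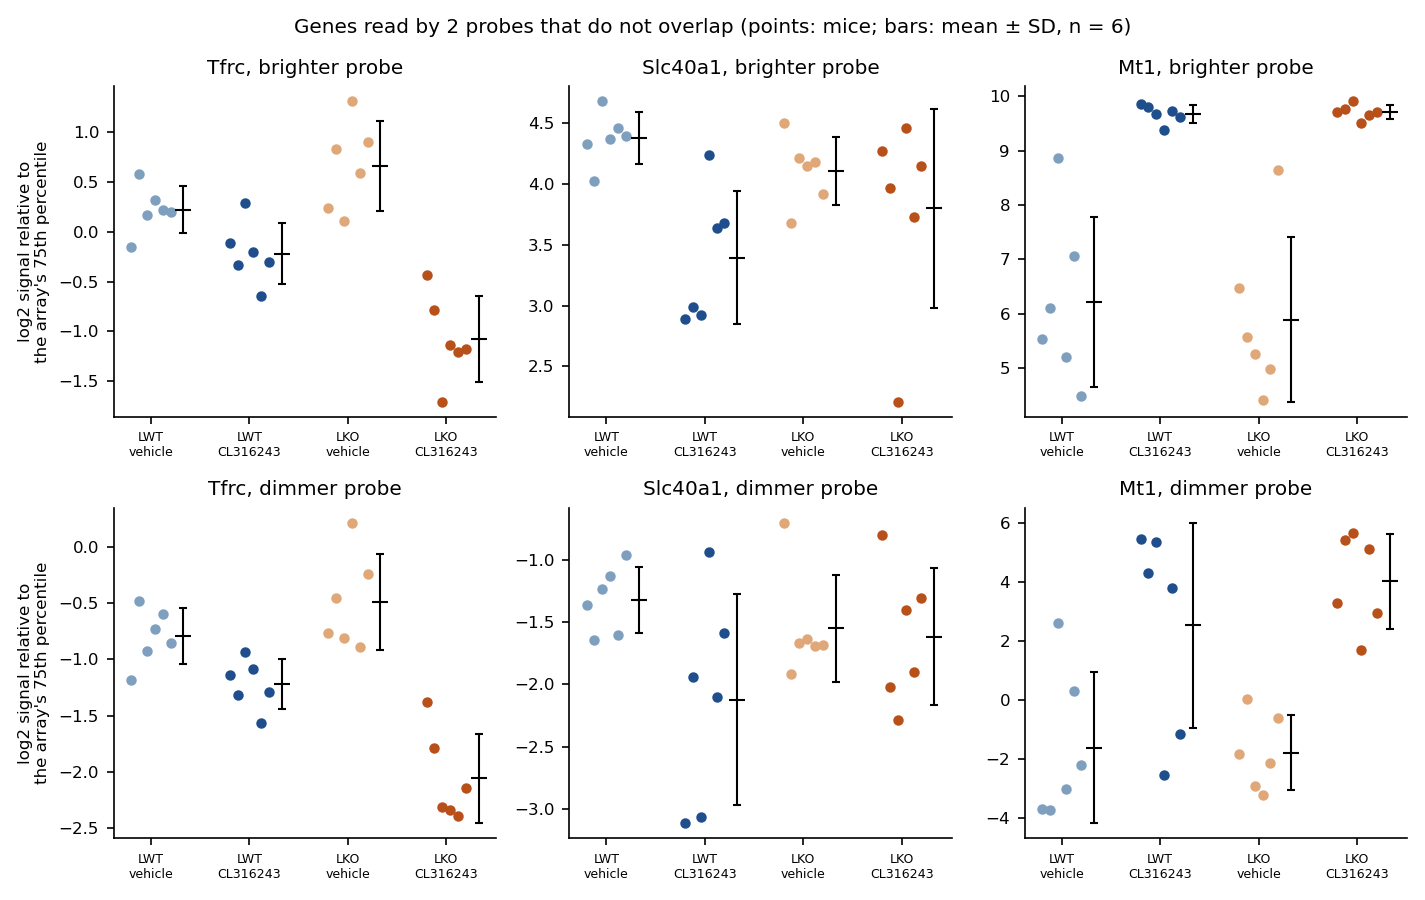
Log2 signal by mouse for the 3 genes with a pair of probes that share no base position, the brighter probe above and the dimmer below (vertical axes relative to the array's 75th percentile; points are mice, bars mean ± SD, n = 6). Both Tfrc probes are lowest in LKO mice given CL316243, both Slc40a1 probes are lowest on average in LWT mice given CL316243, and both Mt1 probes are higher under CL316243.

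Tfr2 encodes transferrin receptor 2, which in hepatocytes senses transferrin iron and helps to set hepcidin. Its brighter probe (chr5:138028646-138028705, plus strand, mm9) spanned only 6.98 to 7.41 over the 24 livers. The difference was 0.05 in LWT, an interval of 0.94-fold to 1.14-fold (limma adjusted p 0.585). In LKO it was 0.11, an interval of 0.98-fold to 1.19-fold (limma adjusted p 0.184). In LWT the sign turned under quantile normalisation (-0.02) and in the series table (-0.03). The other Tfr2 probe, which shares 6 base positions with the first, gave 0.04 and 0.14 and was not called either.

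Mt1 and Mt2 encode the metallothioneins of the liver, which buffer zinc and copper and are known to be induced by zinc, glucocorticoids and inflammation. The brighter Mt1 probe (chr8:96704165-96704224, plus strand, mm9) read 4.48 to 8.86 in LWT vehicle mice (median 5.83) and 9.39 to 9.86 in LWT CL316243 mice (median 9.71). In LKO it read 4.40 to 8.65 under vehicle (median 5.42) and 9.51 to 9.92 under CL316243 (median 9.72). Every treated mouse lay above every vehicle mouse of either genotype.

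Mt1 rose by 3.47 in LWT (SE 0.60, limma adjusted p 9.46e-05) and by 3.82 in LKO (SE 0.60, limma adjusted p 3.57e-05), or 11.1-fold and 14.2-fold. The exact permutation p was 0.00216 in each. The spread fell with the rise: the SD was 1.56 under vehicle and 0.17 under CL316243 in LWT, and 1.51 and 0.13 in LKO. The high vehicle mice were LWT replicate 3 at 8.86 and LKO replicate 6 at 8.65. No spot was saturated, and the treated mice had intensities of 226438 to 283746. Whether the bright probe still rose in step with the RNA at these intensities was not tested.

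The second Mt1 probe (chr8:96703844-96703903) is annotated to a predicted transcript variant and is much dimmer. It rose by 4.15 in LWT (SE 1.31, limma adjusted p 0.0154, exact permutation p 0.0476, or 0.103 adjusted over the 56 exact tests). In LKO it rose by 5.81 (limma adjusted p 0.00122, exact permutation p 0.00216). In LWT CL316243 mice it ran from -2.55 to 5.45, with replicates 4 and 6 in the range of the vehicle mice, so the narrow spread of the bright probe was not seen with the dim one.

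The Mt2 probe (chr8:96697371-96697430, plus strand, mm9) read 3.10 to 8.80 in LWT vehicle mice (median 4.08) and 8.30 to 9.94 in LWT CL316243 mice (median 9.77). In LKO it read 2.83 to 6.43 under vehicle (median 4.37) and 9.36 to 10.06 under CL316243 (median 9.75). The LKO groups lay apart, and in LWT they overlapped through vehicle replicate 3 at 8.80 and CL316243 replicate 4 at 8.30. Mt2 rose by 4.66 in LWT (SE 0.72, limma adjusted p 2.54e-05) and by 5.16 in LKO (SE 0.72, limma adjusted p 9.59e-06), which was 25.2-fold and 35.8-fold. Leaving out each mouse in turn moved the LWT value of Mt2 over 4.30 to 5.44, the highest being without LWT vehicle replicate 3.

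Both changes of Mt2 were larger in size than those of 99.9% of all tested genes. The interaction was 0.36 for Mt1 (limma adjusted p 0.877) and 0.51 for Mt2 (limma adjusted p 0.854). The 95% intervals of the ratio of folds, LKO over LWT, ran from 0.38 to 4.34 and from 0.33 to 6.09. The Mt1 and Mt2 probes share no run longer than 7 bases.

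Slc39a14 encodes ZIP14, a hepatocyte transporter that takes up zinc, manganese and iron not bound to transferrin. Its probe (chr14:70703394-70703453, minus strand, mm9) read 3.92 to 4.71 in LWT vehicle mice (median 4.44) and 4.51 to 6.32 in LWT CL316243 mice (median 5.78). In LKO it read 4.18 to 4.54 under vehicle (median 4.30) and 5.40 to 6.91 under CL316243 (median 5.92). The LKO groups lay apart, and in LWT CL316243 replicate 4 alone fell among the vehicle mice.

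Slc39a14 rose by 1.18 in LWT (SE 0.25, limma adjusted p 0.000803) and by 1.65 in LKO (SE 0.25, limma adjusted p 3.06e-05), or 2.27-fold and 3.13-fold. The interaction was not called (0.46, limma adjusted p 0.557). Within the slides the difference was 0.29 to 1.83 in LWT and 1.15 to 2.19 in LKO.

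Steap4 encodes a metalloreductase that reduces iron and copper and is known to respond to inflammation and nutrients. Its probe (chr5:7981239-7981298, plus strand, mm9) read 1.36 to 2.15 in LWT vehicle mice (median 1.97) and 2.82 to 6.25 in LWT CL316243 mice (median 4.82). In LKO it read 1.34 to 1.99 under vehicle (median 1.75) and 3.58 to 6.37 under CL316243 (median 4.58). Treated and vehicle mice did not overlap in either genotype, and the treated groups were the wide ones, the reverse of the bright Mt1 probe.

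Steap4 rose by 2.70 in LWT (SE 0.44, limma adjusted p 4.87e-05) and by 3.02 in LKO (SE 0.44, limma adjusted p 1.59e-05; exact permutation p 0.00216 in each). Against the vehicle mean the single treated mice were 1.88-fold to 20.2-fold higher in LWT and 3.60-fold to 24.9-fold higher in LKO. The interaction was 0.32 (limma adjusted p 0.848), with an interval of the fold ratio from 0.51 to 3.05.

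Hpx encodes hemopexin, which carries haem from plasma to the liver and is known as an acute-phase protein. Its probe (chr7:112740304-112740363, minus strand, mm9) read 9.34 to 9.70 in LWT vehicle mice (median 9.49) and 9.68 to 10.40 in LWT CL316243 mice (median 10.17). In LKO it read 9.26 to 9.71 under vehicle (median 9.38) and 9.98 to 10.62 under CL316243 (median 10.33). In LWT the groups met at LWT CL316243 replicate 4, and in LKO they lay apart.

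Hpx rose by 0.57 in LWT (SE 0.12, limma adjusted p 0.000872), or 1.48-fold with an interval of 1.24 to 1.77, which is under the 1.5-fold minimum tried as an alternative. It rose by 0.88 in LKO (SE 0.12, limma adjusted p 1.00e-05), or 1.84-fold with an interval of 1.55 to 2.20. The interaction was 0.32 (limma adjusted p 0.359), with an interval of the fold ratio from 0.97 to 1.60.

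**Figure D3:**
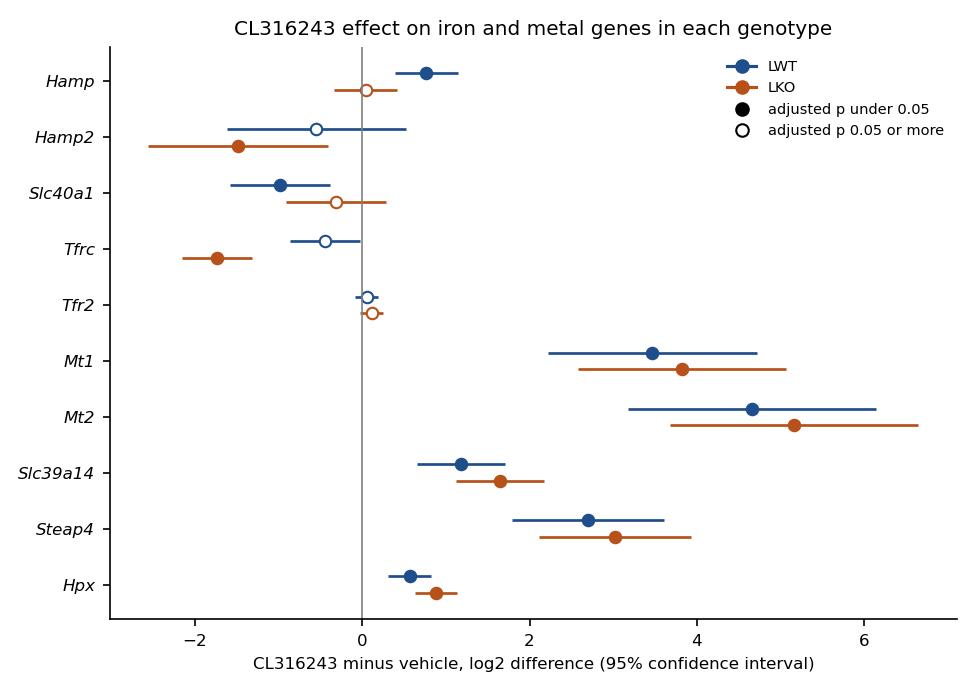
CL316243 minus vehicle on the log2 scale for each gene in LWT (blue) and LKO (orange) livers, with 95% confidence intervals. Filled points passed the adjusted p of 0.05, which are 7 genes in each genotype. The intervals of the 2 genotypes lie apart for Tfrc.

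The mice with the lowest and highest signals were listed for each gene. Of the LWT CL316243 mice, replicate 4 had the lowest signal for 6 genes (Hamp, Mt1, Mt2, Slc39a14, Steap4 and Hpx) and the highest for Slc40a1. The highest signals in that group were divided, with Mt1, Mt2 and Slc39a14 highest in replicate 1 and Steap4 and Hpx in replicate 3. Of the LKO CL316243 mice, replicate 4 was lowest for 6 genes (Tfr2, Mt1, Mt2, Slc39a14, Steap4 and Hpx), and it was highest for Slc40a1. LKO CL316243 replicate 3 was highest for Hamp, Mt1, Mt2, Slc39a14, Steap4 and Hpx and lowest for Tfrc and Slc40a1. Among vehicle mice, LWT replicate 3 was highest for 5 genes (Slc40a1, Mt1, Mt2, Steap4 and Hpx) and LKO replicate 6 for 4 (Mt1, Mt2, Steap4 and Hpx). The lowest LWT vehicle mouse was replicate 6 for Mt1, Mt2 and Steap4, replicate 2 for Slc39a14 and replicate 4 for Hpx.

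LWT CL316243 replicate 4, LKO CL316243 replicates 3 and 4, LWT vehicle replicate 3 and LKO vehicle replicate 6 were left out singly. Each time 7 genes were called for the CL316243 effect in each genotype. Without LWT CL316243 replicate 3, Tfrc was also called in LWT. Without LKO CL316243 replicate 3, however, 2 genes in place of 1 were called for the interaction and 3 in place of 2 between the genotypes under CL316243, Slc40a1 being the gene gained. Without LKO CL316243 replicate 4 the last count was 1, with Hamp lost. The changes in LKO without replicate 3 included those of 4 called genes, with Steap4 at 2.70, Slc39a14 at 1.46, Hpx at 0.82 and Tfrc at -1.61. Without LWT CL316243 replicate 4 the LWT changes were called too, with Steap4 at 3.06, Slc39a14 at 1.40, Hpx at 0.65 and Slc40a1 at -1.15.

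Summed markers of other cells were set beside these mice. The summed linear signal of the 5 tested neutrophil markers was 2.77 to 7.59 times the 75th percentile in LWT vehicle mice and 2.96 to 19.8 in LWT CL316243 mice. In LKO it was 2.95 to 4.66 and 5.07 to 69.0. The highest sum was that of LKO CL316243 replicate 3, and both replicates 4 had the lowest of their treated groups. S100a8, S100a9 and Retnlg were higher in both genotypes. Ly6g, a defining neutrophil marker, was lower in LWT (-0.38, limma adjusted p 0.0372) and -0.28 in LKO (limma adjusted p 0.119). Mpo was not called in LWT (0.21, limma adjusted p 0.355) or in LKO (0.29, limma adjusted p 0.189). Mean S100a9 signal in LKO mice given CL316243 was 3.30, beside -3.49 to 1.34 for the other neutrophil markers. S100a9 was thus the largest part of that neutrophil sum. The 4 tested cholangiocyte markers, of bile duct cells, summed to 0.87 to 1.83 in LWT vehicle mice and 1.38 to 4.27 in LWT mice given CL316243. In LKO they summed to 0.96 to 1.80 and 2.03 to 8.37, with no overlap, and here too replicate 3 was the highest treated LKO mouse and both replicates 4 the lowest of their groups. Of these markers 1 was called, Sox9, which rose by 1.47 in LWT (limma adjusted p 0.00160) and by 2.18 in LKO (limma adjusted p 3.44e-05). Krt7, Krt19 and Epcam were not called in either genotype. Mean Sox9 signal in LKO mice given CL316243 was 1.97, beside -4.04 to -2.14 for the other markers. The linear sum there was thus mostly Sox9. The part of neutrophils and of cholangiocytes in the rises of Mt1, Mt2, Slc39a14, Steap4 and Hpx was not tested.

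Kupffer cells, the liver macrophages that recycle red cell iron, express much Slc40a1. None of the 8 tested Kupffer cell and macrophage markers was called in either genotype (all genes: 38.2% in LWT, 40.2% in LKO). Under vehicle their summed signal was 78.1 to 166 in LWT and 86.3 to 151 in LKO, and under CL316243 it was 89.0 to 174 and 79.8 to 148. The part of Kupffer cells in the Slc40a1 result was not tested. Erythroid cells express much Tfrc. None of their 5 tested markers was called in LWT, beside 38.2% of all genes. In LKO 1 was lower (Hbb-b1, -0.58, limma adjusted p 0.0388), beside 40.2% of all genes. Between genotypes 1 was called, Alas2, beside 1.18% of all genes under vehicle and 15.9% under CL316243. It was higher in LKO under vehicle (0.41, limma adjusted p 0.0228) and under CL316243 (0.35, limma adjusted p 0.0114). The erythroid sum in LKO was 256 to 605 under vehicle and 241 to 459 under CL316243. In LWT it was 317 to 405 and 201 to 346. The part of erythroid cells in the Tfrc result was not tested.

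**Figure D4:**
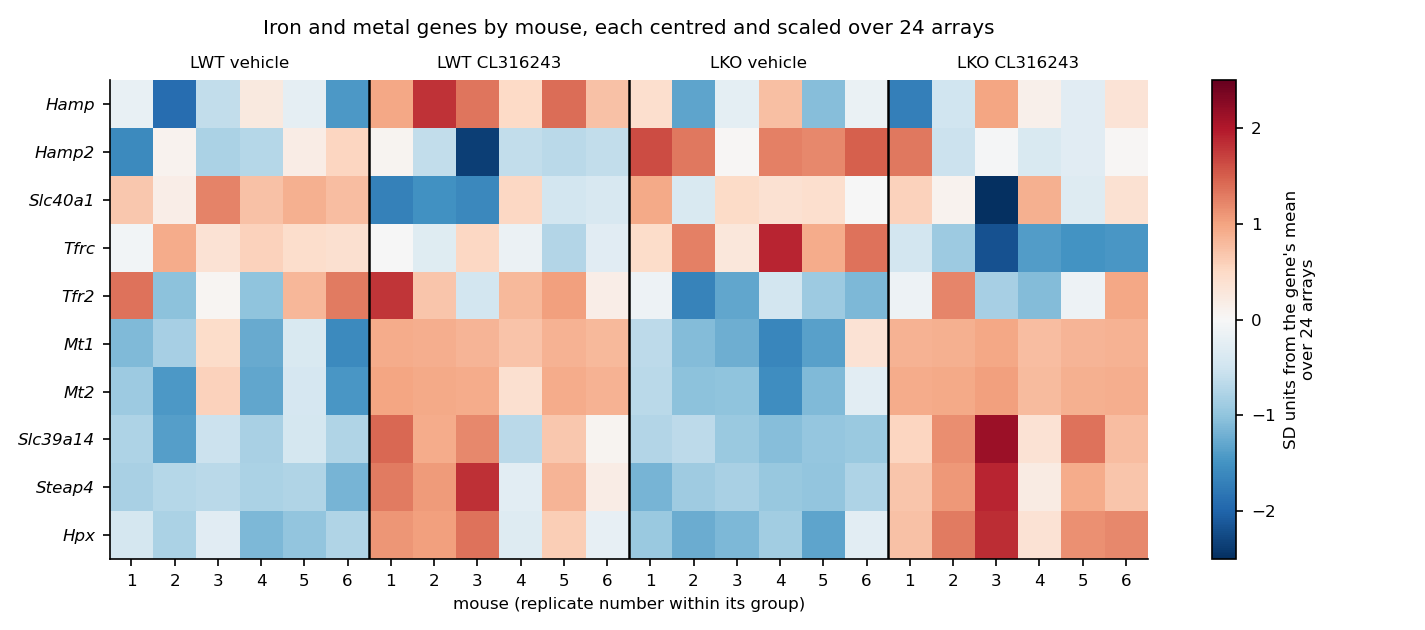
Signal of the 10 genes (rows) in each of the 24 mice (columns, by group and replicate number), in SD units from the gene's mean over the 24 arrays (red high, blue low). Mt1, Mt2, Slc39a14, Steap4 and Hpx are paler or blue in replicate 4 of the LWT CL316243 group relative to its other mice, and LKO CL316243 replicate 3 is deepest red for Slc39a14, Steap4 and Hpx and deepest blue for Slc40a1.

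Other genes of the same pathways were counted from lists, which were also chosen with earlier results of these data known. Beside their counts stand the shares of all tested genes, which were 38.2% called in LWT (19.1% higher and 19.1% lower) and 40.2% in LKO (20.7% higher and 19.4% lower). The BMP and SMAD arm that raises hepcidin had 18 tested genes, of which 5 were higher and 2 lower in LWT (median 0.22), and 5 higher and none lower in LKO (median 0.09). In all 38.9% were called in LWT and 27.8% in LKO, near and below the shares of all genes. In LWT the largest changes whose groups did not overlap were in Id1, a target gene of SMAD signalling (1.96, limma adjusted p 4.00e-05), Bmpr1a, a BMP receptor (0.43, limma adjusted p 8.42e-05), and Acvr1, another (-0.50, limma adjusted p 0.000394). In LKO they were in Smad1 (0.79, limma adjusted p 0.00218) and Smad5 (0.33, limma adjusted p 0.00430), both SMADs of the BMP branch. In LWT the Smad1 difference was 0.48 (limma adjusted p 0.0485) and that of Smad5 0.18 (limma adjusted p 0.108), and in LKO that of Bmpr1a was 0.06 (limma adjusted p 0.580) and that of Acvr1 -0.03 (limma adjusted p 0.860).

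Id1 in LKO differed by 0.68 (limma adjusted p 0.0866). Its interaction was -1.27 (limma adjusted p 0.105), and under CL316243 it was lower in LKO than in LWT by 1.35 on the log2 scale (limma adjusted p 0.00393). Bmpr1a had an interaction of -0.38 (limma adjusted p 0.0348). The interactions of Smad1, Smad5 and Acvr1 were not called.

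The interleukin 6 and stress arm had 8 tested genes, with 4 higher and 1 lower in LWT (median 0.28) and 3 higher and 1 lower in LKO (median 0.26), or 62.5% called in LWT, beside 38.2% of all genes, and 4 of 8 in LKO, beside 40.2%. Stat3, the transcription factor downstream of interleukin 6, rose by 1.01 in LWT (limma adjusted p 0.000581) and by 1.73 in LKO (limma adjusted p 1.90e-06). Socs3, a STAT3 target that restrains the pathway, rose by 3.01 in LKO (limma adjusted p 0.00101), and in LWT it rose by 2.99 (limma adjusted p 0.00106) with overlap between the groups. Creb3l3, a hepatocyte transcription factor that can raise hepcidin, rose by 0.89 in LWT (limma adjusted p 1.47e-05) and differed by 0.17 in LKO (limma adjusted p 0.314), with an interaction of -0.72 (limma adjusted p 0.0224).

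Iron uptake, storage and export had 20 tested genes, with 5 higher and 5 lower in LWT (median 0.09) and 7 higher and 4 lower in LKO (median 0.10). That was 10 of 20 called in LWT, beside 38.2% of all genes, and 11 of 20 in LKO, beside 40.2%. Lcn2, lipocalin 2, which binds iron-carrying siderophores, rose by 6.07 in LWT and by 6.78 in LKO (limma adjusted p 3.68e-07 and 2.00e-07). Steap1, of the same family as Steap4, rose by 1.45 (limma adjusted p 0.000170) and 2.18 (limma adjusted p 2.02e-06). Steap3, an endosomal ferrireductase, fell by 0.72 in LWT and by 0.75 in LKO on the log2 scale, so the STEAP genes did not move one way. Slc25a37, the mitochondrial iron importer mitoferrin 1, fell by 0.85 and by 1.04.

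The test of the genotype difference was called for 1 gene of that list. Cp, the ferroxidase ceruloplasmin, had an interaction of 0.52 (limma adjusted p 0.000382), with a difference of 0.06 in LWT (limma adjusted p 0.472) and a rise of 0.58 in LKO (limma adjusted p 3.31e-07). It is named for that test and not by the rule of largest changes, as are Cpox and Slc39a9 below. Under vehicle Steap1 was lower in LKO by 1.23 on the log2 scale (limma adjusted p 0.0166), and on LKO vehicle arrays it was well above background in 3 of 6.

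Haem synthesis, breakdown and transport had 18 tested genes, with 3 higher and 9 lower in LWT (median -0.18) and 2 higher and 9 lower in LKO (median -0.29). Of all genes 19.1% were lower in LWT and 19.4% in LKO. Ppox, protoporphyrinogen oxidase, fell by 0.71 in LWT and by 0.67 in LKO on the log2 scale. Fech, the enzyme that inserts iron into haem, fell by 0.46 in LWT and by 0.40 in LKO (limma adjusted p 0.000579 and 0.00220). Uros, uroporphyrinogen III synthase, fell by 0.45 in LWT and by 0.59 in LKO (limma adjusted p 0.000600 and 3.85e-05). Hp, haptoglobin, which binds free haemoglobin as hemopexin binds haem, rose by 0.63 and by 0.67. Hmox1, haem oxygenase 1, rose by 2.46 in LKO (limma adjusted p 3.10e-05) and differed by 0.84 in LWT (limma adjusted p 0.0892). Its interaction was not called. Cpox, coproporphyrinogen oxidase, rose by 0.74 in LWT (limma adjusted p 0.0176) and fell by 0.68 on the log2 scale in LKO (limma adjusted p 0.0258), with an interaction of -1.42 (limma adjusted p 0.0135).

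Zinc, copper and manganese handling had 27 tested genes, with 7 higher and 4 lower in LWT (median 0.07) and 8 higher and 7 lower in LKO (median 0.10). In LWT 40.7% were called, near the 38.2% of all genes, and in LKO 55.6%, beside 40.2%. Slc30a10, a manganese exporter, rose by 1.14 in LWT and by 1.05 in LKO (limma adjusted p 2.39e-06 and 9.13e-06). Slc30a5, a zinc transporter of the secretory pathway, rose by 0.71 in LWT and by 0.91 in LKO, and Slc39a6, a zinc importer, by 0.51 and 0.995. Slc31a1, the copper importer, fell by 0.43 on the log2 scale in LWT and by 0.35 in LKO, and Slc30a6, another zinc transporter, fell by 0.36 and by 0.44. Ccs, the copper chaperone of superoxide dismutase, fell by 0.52 in LKO, and its difference in LWT was -0.16 (limma adjusted p 0.105). The interaction was called for Slc39a9, a zinc transporter (-0.46, limma adjusted p 0.00270), and not for Ccs.

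**Figure D5:**
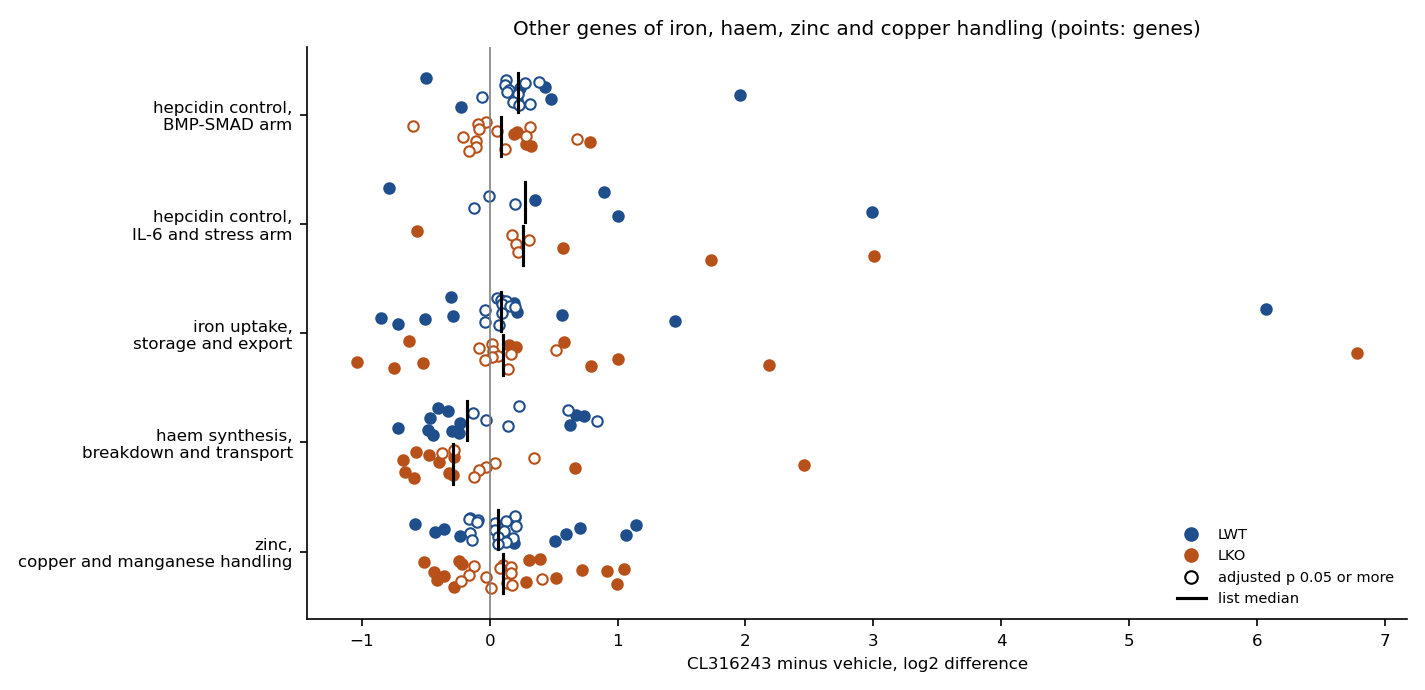
CL316243 minus vehicle on the log2 scale for every tested gene of the 5 pathway lists (points; LWT blue, LKO orange; open points had an adjusted p of 0.05 or more), with each list's median as a black bar. The haem list has its medians below 0, at -0.18 and -0.29, and Lcn2 is the point farthest right, at 6.07 and 6.78.

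The genes whose signals followed each member most closely were found by the root mean square difference of centred log2 signal over the 24 arrays, with the 10 genes themselves passed over. Among the 10, Mt1 and Mt2 differed by 0.83. For Hpx they were Itih4 (0.13, against a spread of 0.42 for Hpx itself) and Hp (0.13), both plasma proteins made by the liver. For Mt1 they were the acute-phase genes Saa1 (0.83, against 2.08) and Saa2 (0.86). For Slc39a14 they were Tnip2 (0.16, against 0.83) and Ptp4a1 (0.21), and for Steap4 they were Krtap11-1 (0.29, against 1.61) and Serpina3n (0.37), an acute-phase gene. For Tfrc they were Hpgd (0.37, against 0.72) and Unc93a (0.37), for Slc40a1 Aplf (0.21, against 0.60) and H2afv (0.23), and for Hamp Tbata (0.14, against 0.41) and Nr5a1 (0.16). For Hamp2 they were Robo1 (0.74, against 1.28) and Snhg11 (0.76), and for Mt2 they were Pip5k1a (0.77, against 2.73) and Bmper (1.15), both outside the 10 genes. The arrays share groups, so closeness here is a description.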

How the data were processed

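RNA from 24 livers was hybridised to 1-colour Agilent arrays, 1 per mouse, on 3 slides that each held 2 mice of every group. The deposited scanner tables hold each spot's processed intensity, with a fitted background surface subtracted and no local background correction. They came from version 10.10.1.1 of Agilent's extraction software, as their headers state. The deposited series table holds log2 values with nearly equal medians on all arrays and was used only as an alternative. limma is named in the submitters' processing notes, with no role.

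Here, log2 processed intensity minus the array's 75th percentile was used. Spots flagged as outliers were set missing (2156 values), and spots of a probe were averaged. Probes had to be well above background on 4 or more of the 6 arrays in 1 or more groups and to have 3 or more values per group. This left 32037 probes. The brightest probe stood for each of 21331 genes. limma 3.58.1 in R 4.3.3 fitted 4 group means with 5 contrasts to all arrays (lmFit, eBayes, prior degrees of freedom 2.18), with Benjamini-Hochberg adjustment over all genes. Second probes were adjusted over all kept probes. The fit was tested on simulated data. The number of arrays limits the precision, and the median SE was 0.13.

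The 10 genes and all lists were chosen with earlier results of these data known. Genes named from each pathway list were the 2 called genes with the largest rise and the 2 with the largest fall whose groups did not overlap, for each CL316243 effect, and the 2 nearest profiles outside the 10 genes were named for each called gene. Of the listed genes, Hjv, Fam132b, Erfe, Cybrd1, Ltf, Flvcr1, Flvcr2, Mt4 and Slc39a5 were not tested. Endothelial, stellate, lymphocyte and cholangiocyte markers were also listed, and the counts and summed levels of lists not in the results are given with the other observations. Coordinates of probes are in mm9, per the file headers, and upstream sequences are from RefSeq. Slc40a1 and Slc39a14 had no entry there. Alternatives were quantile normalisation, normexp with offset 50, other filters, every probe, the mean of a gene's probes, the series table, slide, row and replicate blocks, array weights, only the groups compared, a 1.5-fold minimum and leaving out each mouse. Replicate numbers were not taken to pair the mice.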

Additional observations from a re-analysis of the deposited data

Results flagged for a closer look

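In 7 of the 56 groups of 6 mice tested, 1 mouse lay apart from the other 5, by a gap past the 95% critical value of Dixon's test. Chance gives this in about 1 of 20 groups. Hamp2 had 3 of them, the low LWT CL316243 replicate 3 at 2.04, the low LKO vehicle replicate 3 at 5.15 and the high LKO CL316243 replicate 1 at 6.85. Slc40a1 was low in LKO CL316243 replicate 3, at 2.21, and its second probe was high in LKO vehicle replicate 1, at -0.70. Mt2 was low in LWT CL316243 replicate 4, at 8.30, and Steap4 was low in LWT vehicle replicate 6, at 1.36.

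The response to CL316243 differed between genotypes by the interaction test for both Tfrc probes, at -1.29 and -1.14 on the log2 scale. Among the pathway genes it differed for Bmpr1a (-0.38), Creb3l3 (-0.72), Cpox (-1.42) and Slc39a9 (-0.46), which responded more negatively in LKO, and for Cp (0.52), which responded more positively.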

How the results depend on the processing

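The number of the 10 genes called for CL316243 was 6 to 8 in LWT and 7 in LKO under every alternative run, and 7 to 8 and 6 to 7 on leaving out each mouse. Of 640 values recomputed under the alternatives, 617 kept their direction and their side of the threshold, 9 lost the call, 8 gained it and 6 changed sign, none of these called. Between genotypes under vehicle 1 gene (Hamp2) in place of 0 was called with quantile normalisation, normexp, the series table, array weights and the replicate block. Under CL316243, 1 gene in place of 2 (Hamp lost) was called with quantile normalisation, no filter, the series table, the slide block, the slide and row blocks, the replicate block, only the groups compared and the 1.5-fold minimum. The interaction was called for 2 genes in place of 1 with array weights (Hamp, -0.82). Leaving out each mouse gave 0 to 1 under vehicle, 1 to 3 under CL316243 and 1 to 2 for the interaction. The causes were not tested.

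Signs turned for Hamp in LKO under quantile normalisation (-0.062), the series table (-0.053) and array weights (-0.036), for Tfr2 in LWT as given above (-0.024 and -0.031), and for Mt1 between genotypes under CL316243 with array weights (-0.010). On leaving out each mouse Hamp in LKO was -0.056 to 0.17 and Slc40a1 in LKO -0.44 to 0.0079. The interaction was -0.17 to 0.91 for Mt1, -0.28 to 0.88 for Mt2 and -0.035 to 0.65 for Steap4. The difference between genotypes was -0.87 to 0.21 for Mt1 and -0.68 to 0.48 for Mt2 under vehicle. Under CL316243 it was -0.022 to 0.077 for Mt1, -0.045 to 0.28 for Mt2 and -0.21 to 0.47 for Steap4. With the replicate number as a block 7 genes were called in each genotype and 1 for the interaction. Same-numbered arrays of different groups correlated at -0.18 to 0.42 (36 pairs, median 0.05, 9 over 0.1), and 10 of 24 arrays were nearest to one of their own number. Over all genes the interaction count was 1152, with 2169 under array weights and 678 without the filter, and the vehicle count 252, with 583 and 170. The count under CL316243 was 3383, with 2180 when only the groups compared were fitted and 1632 with the 1.5-fold minimum. With every probe as its own row the interaction was called for 1892 of 32037 probes. A 1.5-fold minimum gave 3804 genes in LWT and 3887 in LKO in place of 8156 and 8566. Within single slides, with 2 mice a group, 47 of 150 values moved by more than the spread between mice.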

Other observations

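Markers of the remaining liver cell types were counted, where 38.2% of all tested genes were called in LWT and 40.2% in LKO. Of 5 endothelial markers 2 were higher in LWT, and 1 was higher and 1 lower in LKO. Their summed signal, as a multiple of the 75th percentile, was 54.8 to 60.0 under vehicle and 58.2 to 69.0 under CL316243 in LWT, and 48.7 to 65.7 and 49.2 to 67.6 in LKO. Of 5 stellate cell markers 2 were higher and 1 lower in LWT and none was called in LKO (limma adjusted p 0.0508 to 0.518). Their sum was 75.7 to 104 under vehicle and 94.5 to 123 under CL316243 in LWT, and 68.7 to 101 and 95.8 to 120 in LKO. Of 4 tested lymphocyte markers 2 were lower in LWT, and 1 was higher and 3 lower in LKO. Their sum was 3.35 to 3.88 under vehicle and 2.85 to 3.57 under CL316243 in LWT, and 2.69 to 3.99 and 2.82 to 3.63 in LKO. Of 6 hepatocyte markers 1 was higher in LWT, and 1 was higher and 1 lower in LKO.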
